A study of Mus musculus with 9 samples.

Results

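The nuclear genes for the subunits of the oxidative phosphorylation chain were followed in mouse embryonic stem (ES) cells that lack Dgcr8 or Dicer. Members were taken by gene symbol alone, as every annotated row whose symbol begins with Nduf, Uqcr, Atp5 or Cox followed by a digit of the 4 to 8 series, or is Sdha, Sdhb, Sdhc or Sdhd. This gave 120 rows of the 35557 in the table, and of the 22999 annotated rows that were counted. Of these, 114 rows carry 1 symbol and stand for 89 genes, and 6 rows carry several symbols and are given apart. A row is 1 probe set of the array, and 17 of the 89 genes have more than 1 row. For such a gene the row with the highest mean over the arrays is described, a choice made after the values were seen.

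Total RNA was measured on 9 Affymetrix mouse gene 1.0 ST arrays, 3 each for Dgcr8 KO, Dicer KO and wild-type (WT) cells, and each row has 1 log2 level per array. Dgcr8 KO cells are ES cells with a deletion of an exon of Dgcr8, which binds RNA within the Microprocessor beside Drosha, Dicer KO cells are ES cells without a working Dicer1 gene, and WT cells are the v6.5 ES line, with no mutation of these genes. Both mutants lack the miRNAs that need both enzymes, since the Microprocessor frees the hairpins that Dicer then cuts. Each genotype is a line of its own, so genotype and line cannot be told apart. Replicates are called biological in the study, whereas the labels speak of cells plated 3 times over, and the p-values may therefore reflect only technical spread. The study names RMA for normalization and the submitters' processing notes name GCRMA, with versions not given in the sources used here.

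Oxidative phosphorylation moves electrons from NADH and succinate to oxygen and uses the energy to make ATP. Complex I (Nduf genes) and complex II (Sdh genes) feed electrons to coenzyme Q, complex III (Uqcr genes) passes them to cytochrome c, and complex IV (Cox genes) hands them to oxygen. Complex V (Atp5 genes), the ATP synthase, lets protons flow back through a membrane rotor, Fo, and makes ATP in its F1 head. All but complex II also contain subunits made inside the mitochondrion from mitochondrial DNA. ES cells are known for a strong use of glycolysis beside respiration.

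Dgcr8 was at 8.74, 8.96 and 8.86 on the Dgcr8 KO arrays, 9.98, 9.99 and 9.99 on the Dicer KO arrays and 9.76, 9.81 and 9.82 on the WT arrays. Dicer1 was at 10.40, 10.47 and 10.39 on the Dgcr8 KO arrays, 8.33, 8.43 and 8.32 on the Dicer KO arrays and 10.18, 10.18 and 10.23 on the WT arrays. Each mutant was lowest in the gene that its label names. The 12 ES cell markers had a mean level of 11.27 to 11.32 on the Dgcr8 KO arrays, 11.41 on each Dicer KO array and 10.98 to 11.06 on the WT arrays, the dimmest of them at 8.998. In each mutant 8 of them were called higher than in WT cells (66.7%) and 1 lower (8.33%). Of all rows, 15.7% and 17.8% were higher in Dgcr8 KO and Dicer KO cells. The 14 fibroblast and feeder markers had a mean of 6.78 to 6.93, 6.68 to 6.76 and 6.61 to 6.75 on the Dgcr8 KO, Dicer KO and WT arrays, with Lum at a mean of 3.32, 3.40 and 3.27 and with Vim, Fn1 and Twist1 called higher in Dgcr8 KO than in WT cells. Of these 3 (21.4% of the markers, against 15.7% of all rows), 2 were also called higher in Dicer KO cells. In Dicer KO cells 2 other markers were called lower than in WT cells (14.3%, against 19.1% of all rows). The 10 primitive endoderm markers had means of 7.04 to 7.14, 7.06 to 7.11 and 7.07 to 7.17, and the 10 muscle markers of 6.43 to 6.67, 6.44 to 6.55 and 6.65 to 6.88, in the same order. Single primitive endoderm markers moved both ways behind these means. Their log2 ratios to WT ran from -1.13 to 1.02 in Dgcr8 KO cells, with 2 called higher (20%) and 1 lower (10%). In Dicer KO cells they ran from -1.15 to 1.69, with 2 called higher (20%) and 2 lower (20%). The part of other cell types in the results below was not tested, and in bulk RNA fewer cells of a type and less RNA per cell cannot be told apart.

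The promoters of respiratory chain genes are known for binding sites of nuclear respiratory factor 1 (NRF1), GABP of the ETS family, YY1 and the estrogen-related receptors (ERR), so these were looked for in RefSeq promoter sequences (build GRCm38.p6) that run from 250 bases before to 50 bases after a gene's start. Matching by symbol gave 78 promoters for 73 of the 89 genes, of 32851 promoters in all. The letters GCGCATGCG, for NRF1, stood on either strand in 10 of the 78 promoters (12.8%) and in 1.75% of all promoters. The letters CCGGAAG, for the ETS family, stood in 18 (23.1%) and in 8.86% of all, AAGATGGCG, for YY1, in 7 (8.97%) and in 1.40% of all, and AAGGTCA, for ERR, in 7 (8.97%) and in 4.72% of all. The NRF1 letters can overlap their own reverse complement, and such a pair was counted as 1 promoter. A match describes the letters and not a site in use.

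The 8 windows below lie upstream of the start and are shown for genes described below, because these genes changed in 1 or both mutants and carry a match, which stands in capitals. Atp5k, Atp5e, Atp5g3 and Sdhd were lower in both mutants than in WT cells, Ndufa11, Cox6a1 and Atp5h were higher in Dicer KO than in WT cells, and Atp5g2 was lower there. They are written 5′ to 3′ on the strand of the gene. The windows lie at chr5:108434430-108434459 (Atp5k), chr2:174464185-174464214 (Atp5e), chr2:73911360-73911389 (Atp5g3), chr9:50603877-50603906 (Sdhd), chr5:115349101-115349130 (Cox6a1), chr11:115419939-115419968 (Atp5h) and chr15:102671070-102671099 (Atp5g2) on the minus strand, and at chr17:56717692-56717721 (Ndufa11) on the plus strand. Capitals mark NRF1 letters in Atp5k, Ndufa11, Cox6a1 and Atp5g2, ETS letters read from the other strand in Atp5e, Sdhd and Atp5h, and ERR letters read from the other strand in Atp5g3.
Atp5k: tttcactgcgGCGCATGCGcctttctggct
Atp5e: tacggccacagCTTCCGGtagccgctcggc
Atp5g3: ttgttacaaagTGACCTTgagcgtcttccc
Sdhd: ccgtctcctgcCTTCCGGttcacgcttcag
Ndufa11: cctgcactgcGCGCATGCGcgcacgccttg
Cox6a1: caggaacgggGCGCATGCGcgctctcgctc
Atp5h: caaggagagaaCTTCCGGcaactctcttcc
Atp5g2: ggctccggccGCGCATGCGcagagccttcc

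Of the 27 genes with a promoter that were lower in Dgcr8 KO than in WT cells, 4 held the NRF1 letters, 8 the ETS, 2 the YY1 and 5 the ERR letters. Of the other 46 genes with a promoter, 6 held the NRF1, 10 the ETS, 5 the YY1 and 2 the ERR letters. These counts are a description and were not tested.

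In Dgcr8 KO cells, more respiratory chain genes were lower than higher relative to WT cells, and the changes were small. A row was called where limma's adjusted p was under 0.05. Of the 114 rows, 46 were lower, against 17.3% of all 22999 rows, and 10 were higher, against 15.7% of all rows. By gene, 34 of 89 were lower (38.2%), 10 were higher and 45 were not called, and the log2 ratios ran from -0.70 to 0.43. Brighter rows were called more often: of the 7352 rows with 1 symbol and a mean level over 8, 32.4% were lower and 26.9% were higher. Of the 75 genes with a level over 8, 31 were lower (41.3%) and 9 were higher (12.0%), so the excess of lower calls was smaller on this background, and the higher calls were fewer than it. SAM, the test the study used, was rewritten here from its description and called 23 rows lower and 2 higher. It added a constant of 0.74 to each row's spread in this contrast, so its calls followed mostly the size of the ratio. The split depended on the scaling, with 48 rows lower and 3 higher after each array was centred on its median, and 39 lower and 20 higher after cyclic loess. At a change of at least 1.5-fold, 6 rows were lower and 0 higher.

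In Dicer KO cells, the calls were more even. Of the 114 rows, 33 were lower than in WT cells, against 19.1% of all rows, and 21 were higher, against 17.8% of all rows. By gene, 27 of 89 were lower (30.3%), 15 were higher and 47 were not called, with log2 ratios from -0.74 to 0.52. Of all brighter rows, 28.4% were lower and 33.3% higher, and among the brighter respiratory chain genes 23 of 75 were lower (30.7%) and 14 were higher (18.7%), so the share lower was near that background and the share higher was under it. SAM called 15 rows lower, and at 1.5-fold 1 row was lower and 0 higher. Both sets of ratios share the WT arrays, so that an error in those arrays enters both.

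The mutants were also set against each other directly. Of the 114 rows, 33 were lower in the Dgcr8 KO than the Dicer KO cells, against 13.4% of all rows, and 8 were higher, against 11.2% of all rows. This split was 38 lower and 5 higher after median centring, and 29 lower and 14 higher after cyclic loess. Of the 75 genes with a level over 8, 23 were lower (30.7%) and 6 were higher (8.0%), against 26.9% and 13.9% of all brighter rows. Relative to both other genotypes, 23 rows were lower in Dgcr8 KO cells, against 5.15% of all rows, and 3 were higher, against 4.75% of all rows. In Dicer KO cells 14 rows were higher than in both other genotypes, against 8.19% of all rows, and 6 were lower, against 5.66% of all rows. With 1 row per gene these were 18 lower and 3 higher in Dgcr8 KO cells, and 8 higher and 4 lower in Dicer KO cells. Median centring gave 26 lower and 1 higher in Dgcr8 KO cells and 14 higher and 3 lower in Dicer KO cells, and cyclic loess 16 lower and 5 higher, and 13 higher and 9 lower. The count of 23 was 15 with SAM, and 12 without Dicer KO replicate 2.

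**Figure D1:**
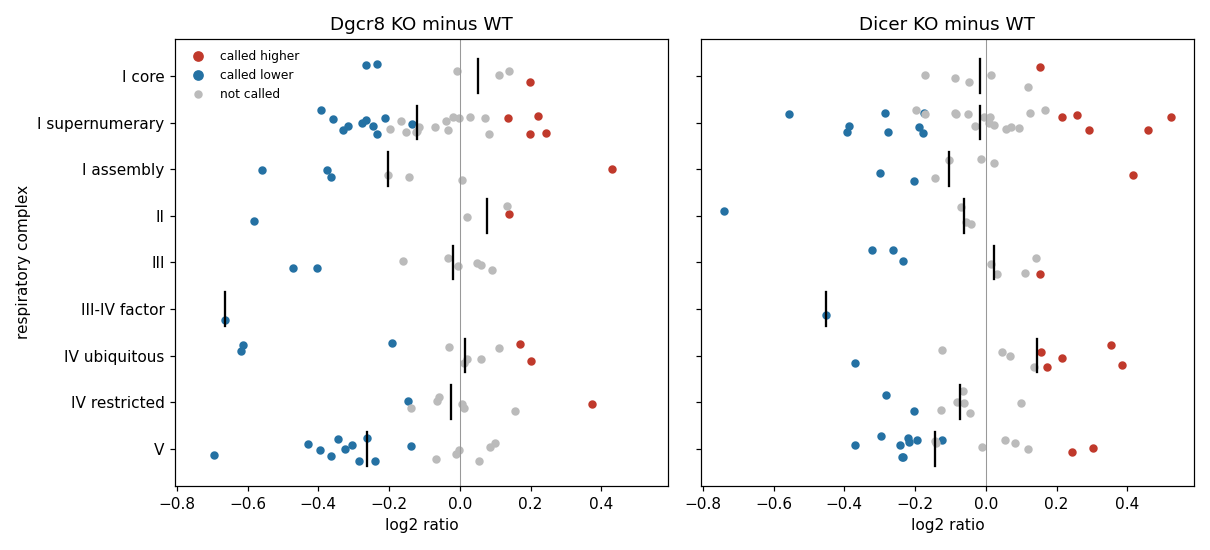
Each point is 1 of the 89 genes, placed by its log2 ratio to WT in Dgcr8 KO cells (left) and Dicer KO cells (right) and by its complex, with called genes coloured and the median of each class as a black line. The 17 complex V genes lie mostly to the left of 0 in both panels, with medians of -0.26 and -0.14, and 8 of the 10 widely expressed complex IV genes lie to the right of 0 in Dicer KO cells, with a median of 0.15, while Cox7a2 (-0.37) and Cox7b (-0.12) lie to the left.

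The complexes did not move as 1 group. The median log2 ratio of the 34 complex I subunit genes relative to WT was -0.12 in Dgcr8 KO cells and -0.018 in Dicer KO cells, and that of the 4 complex II genes was 0.076 and -0.063. It was -0.019 and 0.024 for the 8 complex III genes, 0.015 and 0.15 for the 10 widely expressed complex IV genes, and -0.26 and -0.14 for the 17 complex V genes. Over all rows it was -0.010 and -0.057. The first values of complexes III and IV changed sign under cyclic loess (0.032) and median centring (-0.023).

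Among the complexes, complex V had the highest share of genes called lower in Dgcr8 KO cells. Of its 17 genes, 11 were lower than in WT cells (64.7%) and 0 were higher, and in Dicer KO cells 9 were lower (52.9%) and 2 were higher (11.8%). Of all rows with a level over 8, 32.4% were lower and 26.9% higher in Dgcr8 KO cells, and 28.4% lower and 33.3% higher in Dicer KO cells. The catalytic core of the F1 head was not among the called genes. Atp5a1, the alpha subunit, was at 12.82, 12.83 and 12.80 in Dgcr8 KO cells, 12.81, 12.78 and 12.77 in Dicer KO cells and 12.70, 12.74 and 12.75 in WT cells. Atp5b, the catalytic beta subunit, was at 13.14, 13.20 and 13.15 in Dgcr8 KO cells, 13.15, 13.14 and 13.15 in Dicer KO cells and 13.04, 13.06 and 13.10 in WT cells. Both were slightly above WT on every mutant array, and none of their ratios was called. Atp5c1, the gamma shaft, had ratios of -0.012 (95% interval -0.11 to 0.083) and 0.12 (0.024 to 0.21) in Dgcr8 KO and Dicer KO cells, and neither was called.

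The small subunits of the central stalk behaved otherwise. Atp5d, the delta subunit, was at 11.07, 11.09 and 11.14 in Dgcr8 KO cells, 11.30, 11.30 and 11.30 in Dicer KO cells and 11.39, 11.45 and 11.44 in WT cells. Its 3 genotypes did not overlap, and the log2 ratio to WT was -0.33 ± 0.043 (SE, adjusted p = 0.000282) in Dgcr8 KO and -0.12 ± 0.043 (adjusted p = 0.0488) in Dicer KO cells. The second call was lost in 8 of the 9 fits that left out 1 array (-0.14 to -0.11). Atp5e, the epsilon subunit, was at 8.32, 8.32 and 8.42 in Dgcr8 KO cells, 8.38, 8.54 and 8.51 in Dicer KO cells and 8.70, 8.64 and 8.74 in WT cells, with ratios of -0.35 and -0.22 that were both called, the second lost in 2 of those fits (-0.25 to -0.17).

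The membrane rotor is a ring of subunit c, and 3 genes encode the same mature protein with different import sequences. Atp5g1 was at 9.87, 9.87 and 9.91 in Dgcr8 KO cells, 9.77, 9.78 and 9.78 in Dicer KO cells and 10.09, 10.19 and 10.17 in WT cells. Atp5g3 was at 10.93, 10.91 and 10.92 in Dgcr8 KO cells, 11.02, 11.01 and 11.09 in Dicer KO cells and 11.26, 11.35 and 11.24 in WT cells. Atp5g2 was at 11.93, 11.92 and 11.88 in Dgcr8 KO cells, 11.77, 11.74 and 11.76 in Dicer KO cells and 11.95, 11.98 and 12.00 in WT cells. Atp5g1 and Atp5g3 fell in both mutants, with ratios to WT of -0.26 and -0.36 in Dgcr8 KO and of -0.37 and -0.24 in Dicer KO cells. Atp5g2 fell in Dicer KO cells, with a ratio of -0.22 (adjusted p = 0.00237), and had a ratio of -0.067 (95% interval -0.16 to 0.027) in Dgcr8 KO cells. The difference of Atp5g2 between the mutants was 0.15 (adjusted p = 0.0255), and that call was lost in 5 of the 9 fits that left out 1 array, with adjusted p up to 0.0884. The 3 rows of Atp5g2 and the 2 rows of Atp5g1 gave the same calls.

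Among the membrane and dimer subunits of Fo, Atp5k (subunit e) was at 8.86, 8.80 and 8.90 in Dgcr8 KO cells, 9.07, 8.96 and 9.01 in Dicer KO cells and 9.21, 9.26 and 9.27 in WT cells. The genotypes did not overlap, and its ratio to WT was -0.40 ± 0.050 (SE, adjusted p = 0.000205) in Dgcr8 KO and -0.24 ± 0.050 (adjusted p = 0.00443) in Dicer KO cells. Atp5md, a small Fo protein that stabilizes the ATP synthase, was at 10.12, 10.44 and 10.15 in Dgcr8 KO cells, 10.77, 10.84 and 10.76 in Dicer KO cells and 10.71, 11.09 and 11.01 in WT cells. All Dgcr8 KO arrays were lower than all others, while Dicer KO and WT arrays overlapped. Its ratio of -0.70 ± 0.11 (SE, adjusted p = 0.00089) in Dgcr8 KO relative to WT cells was the lowest among the 89 genes, and its ratio in Dicer KO cells was -0.14 (95% interval -0.39 to 0.11). Its difference between the mutants was -0.55 (adjusted p = 0.00561), and all 3 of its rows were called in the same contrasts. Atp5mpl, another small Fo protein, had ratios of -0.43 and -0.30, and Atp5j2 (subunit f) of -0.28 and -0.23, in Dgcr8 KO and Dicer KO cells, all called. Atp5l (subunit g) had a ratio of -0.31 (adjusted p = 0.00673) in Dgcr8 KO cells in the row described, and all 6 of its rows were called there and 0 in Dicer KO cells.

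The peripheral stalk, which holds the head still against the rotor, was mixed. Atp5pb (subunit b) was at 10.71, 10.96 and 10.74 in Dgcr8 KO cells, 11.30, 11.40 and 11.34 in Dicer KO cells and 10.94, 11.05 and 11.14 in WT cells. Dicer KO arrays were above all others, and 1 Dgcr8 KO array lay above the lowest WT array. Its ratio to WT was -0.24 (adjusted p = 0.0414) in Dgcr8 KO and 0.30 (adjusted p = 0.0128) in Dicer KO cells, and the mutants differed by -0.54 (adjusted p = 0.000904). The lower call in Dgcr8 KO cells was lost in 7 of the 9 fits that left out 1 array, with ratios of -0.32 to -0.19, and the other row of the gene had a ratio of -0.084 there. Atp5h (subunit d) was at 11.25, 11.29 and 11.19 in Dgcr8 KO cells, 11.42, 11.44 and 11.44 in Dicer KO cells and 11.12, 11.22 and 11.23 in WT cells, with a ratio of 0.24 (adjusted p = 0.00343) in Dicer KO and 0.055 (95% interval -0.056 to 0.17) in Dgcr8 KO cells. Atp5o, the subunit that ties the stalk to the head, had called ratios of -0.14 and -0.20 in Dgcr8 KO and Dicer KO cells, the first lost in 8 of the 9 fits that left out 1 array (-0.17 to -0.11). Atp5j (subunit F6) had ratios of -0.0027 and -0.012 and was not called.

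**Figure D2:**
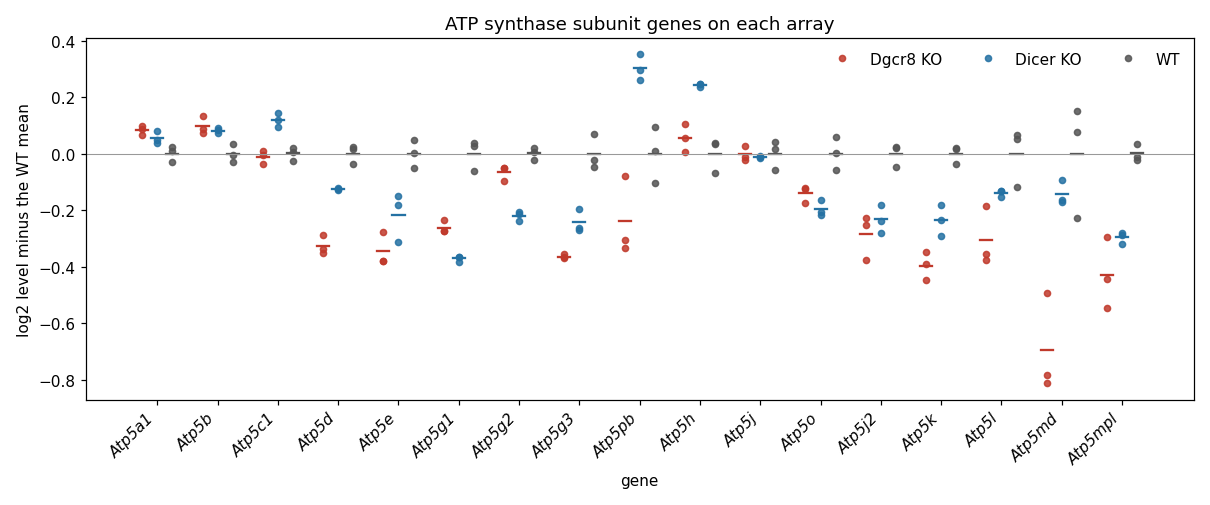
Points show the 17 complex V genes on each array as log2 level minus the WT mean, with Dgcr8 KO, Dicer KO and WT from left to right within each gene and short lines at the group means. Atp5a1, Atp5b and Atp5c1 stay close to the WT mean, Atp5md in Dgcr8 KO cells lies furthest below it, and Atp5pb and Atp5h in Dicer KO cells lie above it.

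In complex II, 1 subunit stood apart. Sdhd, 1 of the 2 membrane anchors, was at 9.48, 9.57 and 9.55 in Dgcr8 KO cells, 9.43, 9.29 and 9.41 in Dicer KO cells and 10.05, 10.14 and 10.16 in WT cells. Every mutant array was below every WT array, and the ratios were -0.58 ± 0.056 (SE, adjusted p = 3.65e-05) in Dgcr8 KO and -0.74 ± 0.056 (SE, adjusted p = 6.18e-06) in Dicer KO cells. Sdhc, the other anchor, was at 10.20, 10.19 and 10.27 in Dgcr8 KO cells, 10.02 on each Dicer KO array, and 10.08, 10.08 and 10.07 in WT cells. Its ratio was 0.14 (adjusted p = 0.0296) in Dgcr8 KO relative to WT cells, a call lost in 5 of the 9 fits that left out 1 array (0.12 to 0.15), and 0.20 (adjusted p = 0.00829) relative to Dicer KO cells. Sdha, the flavoprotein that oxidizes succinate, had ratios of 0.019 (95% interval -0.10 to 0.14) and -0.069 (-0.19 to 0.053), and Sdhb, the iron-sulfur subunit, of 0.13 (0.0052 to 0.26) and -0.043 (-0.17 to 0.085), in Dgcr8 KO and Dicer KO cells. None of these was called.

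In complex III, the lower calls fell on some of the small subunits and not on the core. Of its 8 genes, 2 were lower and 0 higher in Dgcr8 KO cells (25% lower), and 3 lower and 1 higher in Dicer KO cells (37.5% lower). Of all rows with a level over 8, 32.4% and 28.4% were lower in these mutants. Uqcrh, the hinge protein beside cytochrome c1, was at 9.82, 9.80 and 9.70 in Dgcr8 KO cells, 9.91, 9.91 and 9.96 in Dicer KO cells and 10.23, 10.27 and 10.24 in WT cells. Its ratios were -0.47 ± 0.048 (SE, adjusted p = 5.2e-05) and -0.32 ± 0.048 (SE, adjusted p = 0.000532) in Dgcr8 KO and Dicer KO cells. Its difference between the mutants, -0.15 (adjusted p = 0.0497), was lost in 8 of the 9 fits that left out 1 array (-0.17 to -0.11). Uqcrq had ratios of -0.40 (adjusted p = 0.00278) and -0.23 (adjusted p = 0.0414), and Uqcr11 of -0.16, not called, and -0.26 (adjusted p = 0.0145). In Dicer KO cells these calls were lost in 6 (Uqcrq, -0.27 to -0.18) and 3 (Uqcr11, -0.34 to -0.21) of the 9 fits that left out 1 array. The core proteins Uqcrc1 and Uqcrc2 had ratios of 0.092 and 0.060 in the Dgcr8 KO cells, and of 0.033 and 0.15 in the Dicer KO cells, of which the last was called (adjusted p = 0.0373) and lost in 5 of the 9 fits that left out 1 array (0.12 to 0.18). The Rieske iron-sulfur protein Uqcrfs1 had ratios of 0.049 and 0.11 and was not called. Neither were the small subunits Uqcrb and Uqcr10, with ratios of -0.0047 and -0.034 in Dgcr8 KO and of 0.015 and 0.14 in Dicer KO cells.

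Complex IV was higher in 5 of its 10 widely expressed subunit genes in Dicer KO cells and lower in 1, and higher in 2 and lower in 3 in Dgcr8 KO cells, relative to WT. In Dicer KO cells 50% were higher and 10% lower, against 33.3% and 28.4% of all rows with a level over 8. In Dgcr8 KO cells 20% were higher and 30% lower, against 26.9% and 32.4% of those rows. Cox6a1, which sits at the dimer contact, was at 9.94, 10.08 and 9.92 in Dgcr8 KO cells, 10.38, 10.29 and 10.36 in Dicer KO cells and 9.95, 9.93 and 9.998 in WT cells. Dicer KO arrays lay above all others, while Dgcr8 KO and WT arrays overlapped, and the ratio to WT was 0.39 ± 0.055 (SE, adjusted p = 0.000407) in Dicer KO and 0.020 (95% interval -0.10 to 0.14) in Dgcr8 KO cells. Cox5a was at 9.64, 9.64 and 9.60 in Dgcr8 KO cells, 9.84, 9.74 and 9.76 in Dicer KO cells and 9.33, 9.45 and 9.51 in WT cells, with called ratios of 0.20 and 0.35. Cox6b1 had called ratios of 0.17 and 0.22, and Cox5b of 0.011, not called, and 0.16 (adjusted p = 0.0191). The calls of Cox5a and Cox6b1 in Dgcr8 KO cells were each lost without Dgcr8 KO replicate 1 or replicate 2, and that of Cox5b in Dicer KO cells without WT replicate 3 or Dicer KO replicate 1. Over the fits without 1 array these ratios ran from 0.15 to 0.24, 0.14 to 0.19 and 0.13 to 0.17. Cox4i1, Cox8a and Ndufa4, which is now placed in complex IV, had ratios between -0.030 and 0.14 and were not called.

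Cox7a2 fell in both mutants. It was at 8.93, 8.86 and 9.02 in Dgcr8 KO cells, 9.28, 9.16 and 9.12 in Dicer KO cells and 9.50, 9.59 and 9.57 in WT cells, with no overlap between genotypes. The ratios were -0.62 ± 0.062 (SE, adjusted p = 4.87e-05) and -0.37 ± 0.062 (SE, adjusted p = 0.00117). Cox7a2l, a relative of Cox7a2 that joins complexes III and IV into supercomplexes, was at 8.50, 8.66 and 8.55 in Dgcr8 KO cells, 8.71, 8.82 and 8.80 in Dicer KO cells and 9.18, 9.27 and 9.24 in WT cells. Its ratios were -0.66 ± 0.057 (SE, adjusted p = 1.83e-05) and -0.45 ± 0.057 (SE, adjusted p = 0.000187), and its other row gave -0.45 and -0.54, also called. The difference of Cox7a2l between the mutants was -0.21 in the first row and 0.087, not called, in the other, so its size relative to Dicer KO cells is uncertain.

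Isoforms that replace a widely expressed subunit in muscle, lung or testis made up 8 genes, with a median level of 6.57. In Dgcr8 KO cells 1 was lower and 1 higher than in WT cells (12.5% each), against 17.3% and 15.7% of all rows. In Dicer KO cells 2 were lower (25%) and 0 higher, against 19.1% and 17.8% of all rows. Cox6b2, known from testis, was at 8.55, 8.52 and 8.67 in Dgcr8 KO cells, 8.20, 8.18 and 8.03 in Dicer KO cells and 8.06, 8.28 and 8.28 in WT cells, and all Dgcr8 KO arrays were above all others. Its ratio was 0.37 ± 0.078 (SE, adjusted p = 0.00476) relative to WT and 0.44 ± 0.078 (SE, adjusted p = 0.00314) relative to Dicer KO cells. Cox7a1, the heart and muscle form, fell in Dicer KO relative to WT cells (-0.28, adjusted p = 0.0118). Ndufa4l2 had ratios of -0.15 in Dgcr8 KO cells, lost in 8 of the 9 fits that left out 1 array (-0.16 to -0.12), and -0.20 in Dicer KO cells. Cox4i2, Cox6a2, Cox7b2, Cox8b and Cox8c had levels from 4.29 to 7.13 on all arrays and were not called in any contrast.

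Complex I is the largest complex. Of its 6 measured core genes, 2 were lower (33.3%) and 1 higher (16.7%) in Dgcr8 KO relative to WT cells, against 32.4% and 26.9% of all rows with a level over 8. In Dicer KO cells 0 were lower and 1 was higher, against 28.4% and 33.3% of those rows. Ndufs1, which holds iron-sulfur clusters at the entry arm, was at 10.27, 10.44 and 10.29 in Dgcr8 KO cells, 10.50, 10.51 and 10.55 in Dicer KO cells and 10.49, 10.64 and 10.57 in WT cells. Its ratio of -0.23 in Dgcr8 KO cells (adjusted p = 0.013) was lost without Dgcr8 KO replicate 1 (-0.29 to -0.20 over all 9 such fits), and that of Ndufv2, -0.27 (adjusted p = 0.0148), in 4 of the 9 fits that left out 1 array (-0.33 to -0.23). Ndufv1, which binds NADH, was at 10.32, 10.35 and 10.39 in Dgcr8 KO cells, 10.33, 10.29 and 10.30 in Dicer KO cells and 10.07, 10.17 and 10.21 in WT cells. It rose by 0.20 (adjusted p = 0.0123) and 0.15 (adjusted p = 0.0387), the second lost in 6 of the 9 fits that left out 1 array (0.11 to 0.18). Ndufs3, Ndufs7 and Ndufs8 had ratios from -0.086 to 0.14 and were not called.

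Of the 28 supernumerary complex I genes, 10 were lower and 4 higher in Dgcr8 KO cells, and 8 lower and 5 higher in Dicer KO cells, relative to WT. In these mutants 35.7% and 28.6% were lower, near the 32.4% and 28.4% of all rows with a level over 8. Higher calls made up 14.3% and 17.9%, against 26.9% and 33.3% of those rows. Ndufa11, which lies where the membrane arm binds complex III, was at 9.63, 9.60 and 9.57 in Dgcr8 KO cells, 9.86, 9.89 and 9.97 in Dicer KO cells and 9.33, 9.50 and 9.32 in WT cells. The genotypes did not overlap, with ratios of 0.22 ± 0.060 (SE, adjusted p = 0.0175) and 0.52 ± 0.060 (SE, adjusted p = 9.45e-05). Its other row was not called, with ratios of 0.20 and 0.22, and the call in Dgcr8 KO cells was lost without WT replicate 3 or Dgcr8 KO replicate 1 (0.19 to 0.28 over all 9 such fits). Ndufs4, whose loss in mice is a model of Leigh syndrome, had called ratios of 0.24 and 0.29, and Ndufa9 of 0.20 and 0.26, the first of these lost in 3 of the 9 fits that left out 1 array (0.17 to 0.23).

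Ndufs5 and Ndufa7 were lower in Dicer KO cells than in both other genotypes. Ndufs5 was at 8.15, 8.08 and 8.10 in Dgcr8 KO cells, 7.63, 7.73 and 7.76 in Dicer KO cells and 8.08, 8.46 and 8.24 in WT cells. Ndufa7 was at 8.14, 7.97 and 8.10 in Dgcr8 KO cells, 7.82, 7.82 and 7.75 in Dicer KO cells and 8.11, 8.18 and 8.27 in WT cells. The Dicer KO arrays were below all others for both genes, and the ratios of Dicer KO to WT were -0.56 (adjusted p = 0.000818) and -0.39 (adjusted p = 0.000803). Those of Dgcr8 KO to WT were -0.15 (95% interval -0.35 to 0.049) and -0.12 (-0.26 to 0.025). A further row that names Ndufs5 and a pseudogene of it had a ratio of 0.13 in Dicer KO cells and was not called, so the value of Ndufs5 is uncertain.

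Ndufb6 and Ndufb7, of the membrane arm, were lower in Dgcr8 KO cells than in both other genotypes. Ndufb6 was at 10.42, 10.54 and 10.47 in Dgcr8 KO cells, 10.75, 10.80 and 10.69 in Dicer KO cells and 10.68, 10.82 and 10.76 in WT cells. Ndufb7 was at 9.03, 8.90 and 8.88 in Dgcr8 KO cells, 9.23, 9.22 and 9.20 in Dicer KO cells and 9.24, 9.18 and 9.20 in WT cells. All Dgcr8 KO arrays lay below the others, while Dicer KO and WT arrays overlapped. Their ratios to WT were -0.28 and -0.27 in Dgcr8 KO cells, both called, and -0.0039 and 0.0084 in Dicer KO cells. Ndufb10 had ratios of -0.39 in both mutants, both called, of which that in Dgcr8 KO cells was lost without WT replicate 2 or Dgcr8 KO replicate 1 (-0.44 to -0.30 over all 9 such fits). Ndufa3 was at 9.27, 9.24 and 9.22 in Dgcr8 KO cells, 8.89, 8.97 and 8.90 in Dicer KO cells and 9.15, 9.09 and 9.09 in WT cells, so that WT lay between the mutants. Its ratio to WT was 0.14 (adjusted p = 0.0462) in Dgcr8 KO cells, lost in 8 of the 9 fits that left out 1 array (0.12 to 0.16), and -0.19 (adjusted p = 0.00926) in Dicer KO cells, and the mutants differed by 0.33 (adjusted p = 0.000775).

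Assembly factors whose symbols begin with Ndufaf help to build complex I and are not part of the finished enzyme. Of 7, 3 were lower and 1 higher in Dgcr8 KO cells, and 2 lower and 1 higher in Dicer KO cells, relative to WT. That is 42.9% and 28.6% lower, against 17.3% and 19.1% of all rows and 32.4% and 28.4% of rows with a level over 8. Ndufaf2 was at 7.73, 8.01 and 7.79 in Dgcr8 KO cells, 8.11 on each Dicer KO array, and 8.28, 8.52 and 8.42 in WT cells, with ratios of -0.56 (adjusted p = 0.000562) and -0.30 (adjusted p = 0.0183), the second lost in 4 of the 9 fits that left out 1 array (-0.36 to -0.24). Ndufaf5 was at 6.71, 6.96 and 6.80 in Dgcr8 KO cells, 6.80, 6.92 and 6.71 in Dicer KO cells and 6.37, 6.44 and 6.37 in WT cells, with ratios of 0.43 and 0.42, both called. The mutants overlapped and lay above WT. Ndufaf4 fell in Dgcr8 KO cells, with a ratio of -0.36 (adjusted p = 0.00519), and had a ratio of -0.10 in Dicer KO cells.

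Of the 89 genes, 3 are X-linked by RefSeq, and chromosome X as a whole differed between the mutants. Among the 232 X-linked rows with a level over 8, the median log2 ratio was 0.37 in Dicer KO relative to WT cells, with 69.0% of rows called higher, against 32.1% of the 7117 autosomal rows. Between the mutants the median was -0.43, with 77.6% of X-linked rows lower in the Dgcr8 KO than the Dicer KO cells, against 25.2% of autosomal rows. Between Dgcr8 KO and WT cells the X-linked median was -0.027. The shift of the chromosome stands beside the following 3 genes, and its part in their differences was not tested.

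Ndufa1, which complex I needs for assembly, was at 8.85, 8.82 and 8.67 in Dgcr8 KO cells, 9.35, 9.25 and 9.34 in Dicer KO cells and 9.09, 9.08 and 9.12 in WT cells. The genotypes did not overlap, and the ratios to WT were -0.32 (adjusted p = 0.0023) in Dgcr8 KO and 0.22 (adjusted p = 0.0171) in Dicer KO cells, the second lost in 3 of the 9 fits that left out 1 array (0.20 to 0.25). Ndufb11, also of complex I, was at 9.47, 9.36 and 9.30 in Dgcr8 KO cells, 9.88, 9.81 and 9.92 in Dicer KO cells and 9.34, 9.40 and 9.49 in WT cells, with a ratio of 0.46 (adjusted p = 0.000281) in Dicer KO and -0.034 (95% interval -0.17 to 0.11) in Dgcr8 KO cells. Cox7b, of complex IV, was at 10.04, 10.14 and 10.001 in Dgcr8 KO cells, 10.53, 10.56 and 10.55 in Dicer KO cells and 10.53, 10.76 and 10.72 in WT cells, with a ratio of -0.61 (adjusted p = 8.2e-05) in Dgcr8 KO and -0.12 (95% interval -0.28 to 0.027) in Dicer KO cells. The mutants differed by -0.53, -0.49 and -0.49 in the 3 genes, each near the X-linked median of -0.43. Relative to WT, the X-linked median rose with Dicer loss (0.37) and stayed near 0 with Dgcr8 loss (-0.027), as Ndufb11 did. Cox7b instead was lower in Dgcr8 KO cells (-0.61) and not called in Dicer KO cells (-0.12, and 0.054 in its other row). Ndufa1 was lower in Dgcr8 KO cells (-0.32) as well as higher in Dicer KO cells (0.22). Without the rows of these 3 genes, 28 of 109 rows were lower in the Dgcr8 KO than the Dicer KO cells. Of the 72 autosomal genes with a level over 8, 20 were lower there (27.8%) and 6 higher (8.3%). This share lower was near the 25.2% of autosomal rows with a level over 8, of which 14.2% were higher.

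**Figure D3:**
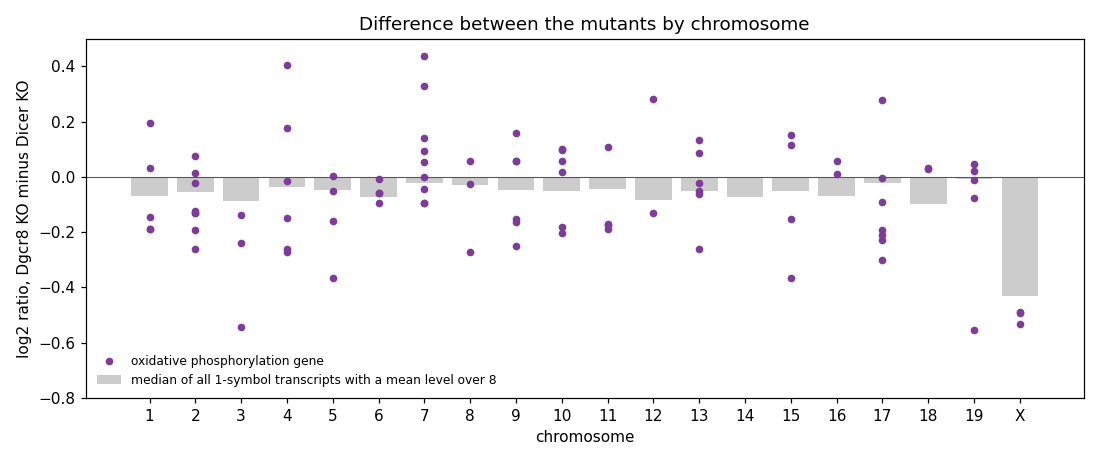
Bars show, for each chromosome, the median log2 ratio of Dgcr8 KO to Dicer KO cells over all rows with 1 symbol and a mean level over 8, and points show the respiratory chain genes on it. The X bar stands at -0.43 and its 3 points close to it, while the autosomal bars all lie closer to 0. Ratios to WT are not shown here, and those of Cox7b and Ndufa1 in Dgcr8 KO cells (-0.61 and -0.32) lay below the X-linked median of -0.027.

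Outside chromosome X, the mutants also differed in complex IV. Cox6c was at 11.14, 11.08 and 11.16 in Dgcr8 KO cells, 11.48, 11.50 and 11.51 in Dicer KO cells and 11.30, 11.37 and 11.30 in WT cells. WT lay between the mutants with no overlap, and the ratios were -0.19 (adjusted p = 0.0081) and 0.17 (adjusted p = 0.0128), with a difference between the mutants of -0.37 (adjusted p = 0.000328). Its other row gave -0.18, 0.28 and -0.46, all called. After cyclic loess the ratio of Dgcr8 KO to WT in the first row was not called.

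**Figure D4:**
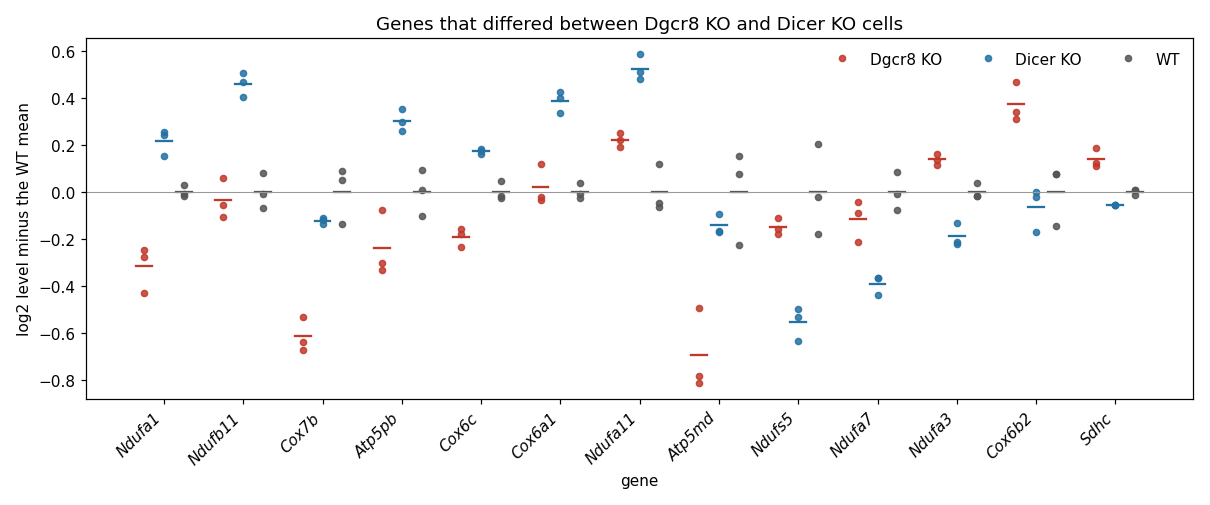
Points show 13 genes with a called difference between the mutants on each array, as log2 level minus the WT mean, with Dgcr8 KO, Dicer KO and WT from left to right within each gene and short lines at the group means. Ndufa1, Atp5pb and Cox6c lie below WT in Dgcr8 KO cells and above it in Dicer KO cells, and Ndufa3 lies the other way.

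The 6 rows with several symbols were not called in Dgcr8 KO relative to WT cells. Both rows that name Ndufb4 and Ndufb4b were higher in Dicer KO cells, each with a ratio of 0.46. The 3 rows that name Cox7c beside a predicted gene had ratios between -0.087 and 0.013 in both mutants and were not called. Some genes have processed pseudogenes or several rows that may share probes, so rows of a gene are not independent. Of the 17 genes with more than 1 row, all rows gave the same call for 15 genes in each contrast, and no gene had rows called in opposite directions.

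Other genes of the pathway were counted in lists by role. Of 34 measured assembly factors outside the Nduf names, 2 were higher and 13 lower in Dgcr8 KO cells, and 6 higher and 11 lower in Dicer KO cells, relative to WT. The shares lower, 38.2% and 32.4%, lay near the 32.4% and 28.4% of all rows with a level over 8. The shares higher, 5.88% and 17.6%, were under the 26.9% and 33.3% of those rows. Uqcc3, needed for complex III, had ratios of -0.75 (adjusted p = 9.33e-05) and -0.55, and Atpaf2, which helps assemble F1, of -0.52 and -0.56 (adjusted p = 0.000134). Sdhaf2, which helps put the flavin into Sdha, had ratios of -0.57 and -0.23, and Ecsit, a complex I assembly factor, of -0.33 and -0.52, all called. The call of Sdhaf2 in Dicer KO cells was lost in 4 of the 9 fits that left out 1 array (-0.29 to -0.17).

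Genes that copy and express mitochondrial DNA were also counted. Of 20 measured, 0 were higher and 9 lower in Dgcr8 KO cells, and 1 was higher and 10 lower in Dicer KO cells. The shares lower were 45% and 50%, against 17.3% and 19.1% of all rows and 32.4% and 28.4% of rows with a level over 8. Tfam, which packs mitochondrial DNA and starts its transcription, was at 7.59, 8.06 and 7.81 in Dgcr8 KO cells, 8.30, 8.33 and 8.31 in Dicer KO cells and 8.69, 9.05 and 8.96 in WT cells. The genotypes did not overlap, and the ratios were -1.08 (adjusted p = 9.84e-05) and -0.59 (adjusted p = 0.0039). Twnk, the helicase of mitochondrial DNA, had called ratios of -0.61 and -0.73, and Gfm2, a mitochondrial translation factor, of -0.67 and -0.50. Supv3l1 and Lrpprc, which act on mitochondrial RNA, had ratios of -0.25 and -0.12 in the Dgcr8 KO cells, and of -0.45 and -0.34 in the Dicer KO cells, all called but the ratio of -0.12.

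Transcripts made from mitochondrial DNA stayed out of the fit, and 7 rows carry such symbols. The Dicer KO arrays overlapped those of WT in every row. The Dgcr8 KO arrays did so in every row but the one that names ND6 together with Acsm2, where they lay below WT. That row was at 11.29, 11.40 and 11.15 in Dgcr8 KO cells, 11.54, 11.48 and 11.45 in Dicer KO cells and 11.47, 11.42 and 11.67 in WT cells. A row for COX2 was at 13.01, 13.19 and 12.96 in Dgcr8 KO cells, 13.16, 13.23 and 13.16 in Dicer KO cells and 13.06, 13.19 and 13.23 in WT cells. A row for ND3 was at 12.15, 12.22 and 12.13 in Dgcr8 KO cells, 12.18, 12.30 and 12.18 in Dicer KO cells and 12.08, 12.11 and 12.20 in WT cells.

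Of the 16 transcriptional regulators of mitochondrial genes, 1 was higher and 3 lower in Dgcr8 KO cells, and 2 higher and 3 lower in Dicer KO cells. In each mutant 18.8% were lower, close to the 17.3% and 19.1% of all rows and under the 32.4% and 28.4% of rows with a level over 8. The shares higher, 6.25% and 12.5%, were also under the 26.9% and 33.3% of those brighter rows. Myc, a growth regulator that binds many such genes, was at 7.46, 7.64 and 7.63 in Dgcr8 KO cells, 7.85, 7.80 and 7.86 in Dicer KO cells and 10.06, 10.34 and 10.20 in WT cells, with ratios of -2.62 (adjusted p = 3.12e-08) and -2.36 (adjusted p = 3.35e-08). Mycn, its relative, had a ratio of -0.040, not called, in Dgcr8 KO cells and of -0.81 (adjusted p = 6.12e-07) in Dicer KO cells. Esrrb, an ERR family member and an ES cell factor, rose by 0.55 and 0.16. Pprc1, a coactivator, had ratios of -0.14 and -0.39, both called, and Nrf1 of -0.17, called, and -0.0026, not called. In fits that left out 1 array, the calls of Pprc1 and Nrf1 in Dgcr8 KO cells were each lost in 7 of 9 (-0.16 to -0.12 and -0.19 to -0.13) and that of Esrrb in Dicer KO cells in 2 of 9 (0.14 to 0.18).

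The tricarboxylic acid cycle, which makes the NADH and succinate, held 5 higher and 5 lower genes of 16 in Dgcr8 KO cells, and 8 higher and 1 lower in Dicer KO cells. In Dgcr8 KO cells 31.2% were higher and 31.2% lower, near the 26.9% and 32.4% of rows with a level over 8, and in Dicer KO cells 50% were higher and 6.25% lower, against 33.3% and 28.4% of those rows. Idh2, a mitochondrial isocitrate dehydrogenase that makes NADPH, was at 10.86, 10.88 and 10.88 in Dgcr8 KO cells, 10.63, 10.60 and 10.60 in Dicer KO cells and 9.36, 9.42 and 9.49 in WT cells, with ratios of 1.45 (adjusted p = 5.87e-08) and 1.19 (adjusted p = 1.03e-07). Citrate synthase, Cs, rose by 0.32 and 0.65, malate dehydrogenase, Mdh2, by 0.42 and 0.70, and Idh3b by 0.38 and 0.28, all called.

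Of 11 carriers and channels measured, 2 were higher and 3 lower in Dgcr8 KO cells, and 5 higher and 3 lower in Dicer KO cells. The shares lower were 27.3% in each mutant and the shares higher 18.2% and 45.5%, against 32.4% and 28.4% lower and 26.9% and 33.3% higher among rows with a level over 8. Mpc1, of the mitochondrial pyruvate carrier, was at 8.20, 8.34 and 8.20 in Dgcr8 KO cells, 9.19, 9.29 and 9.27 in Dicer KO cells and 7.18, 7.19 and 7.37 in WT cells, with ratios of 0.99 and 2.00. Slc25a4, an ADP/ATP carrier, was at 10.86, 10.98 and 10.90 in Dgcr8 KO cells, 11.28 on each Dicer KO array, and 11.89, 11.89 and 11.90 in WT cells, with ratios of -0.99 and -0.62. The 3 genotypes did not overlap for either gene. Vdac1, an outer membrane channel, rose by 0.25 and 0.42, and Vdac2 had a called ratio of -0.42 in Dgcr8 KO cells and -0.18, not called, in Dicer KO cells.

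Of 16 measured electron carriers and genes of coenzyme Q synthesis, 5 were higher and 4 lower in Dgcr8 KO cells, and 7 higher and 3 lower in Dicer KO cells. The shares higher were 31.2% and 43.8%, against 26.9% and 33.3% of rows with a level over 8. Lower calls made up 25% and 18.8%, against 32.4% and 28.4% of those rows. Cyct, the testis form of cytochrome c, was at 7.37, 7.57 and 7.47 in Dgcr8 KO cells, 8.88, 9.04 and 8.96 in Dicer KO cells and 8.32, 8.46 and 8.54 in WT cells. WT lay between the mutants, with ratios of -0.97 and 0.52 and a difference between the mutants of -1.49 (adjusted p = 1.81e-06). Cycs, the other cytochrome c gene, had ratios of -0.56 (adjusted p = 0.000933) in Dgcr8 KO and -0.15, not called, in Dicer KO cells. Its difference between the mutants was -0.41 (adjusted p = 0.00842). Etfdh and Etfb, which bring electrons from fatty acid oxidation to coenzyme Q, rose by 0.57 and 0.48 in Dgcr8 KO and by 0.81 and 0.48 in Dicer KO cells. Coq3 rose by 0.64 and 0.58, and Coq2, an earlier enzyme of coenzyme Q synthesis, had ratios of -0.24 and -0.54, all called.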

How the data were processed

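Values from 9 arrays, 3 per genotype, were analysed as log2 levels made by the authors and deposited by them, normalized by RMA per the study or GCRMA per the submitters' processing notes. Nothing was normalized again. Array medians were 6.49 to 6.56. The table holds no counts or background signal, so the number of arrays limits the precision, and 2, 3 and 1 member rows hold the same value on all 3 Dgcr8 KO, Dicer KO and WT arrays. Symbols came from the platform annotation, and 12147 rows without one, 326 miRNA-only, 7 mitochondrial and 78 Y-linked rows were left out.

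In R 4.3.3, limma 3.58.1 fitted a mean per genotype to all 9 arrays (lmFit, eBayes), with Benjamini-Hochberg adjustment across 22999 rows. Intervals are 95% and per gene. SAM was rewritten from its description, with 20 label permutations per pair and a 5% false discovery rate. The constant it adds to each row's spread was 0.74 for Dgcr8 KO against WT and 0.47 for Dicer KO against WT. Between the mutants it was 0.16, so SAM counts are not alike across contrasts. Results were recomputed under 19 other settings and under 4 more (1 row per gene, 2 arrays left out together, rows with several symbols, no X-linked genes) chosen after seeing the data. Named genes were core subunits, isoforms, the 8 per direction with the largest called ratios in each contrast, up to 8 per mutant and direction altered relative to both, and per list the 3 per mutant with the smallest adjusted p. Others were named for their role after their values were seen. Members and lists were chosen with earlier results of these data known. On simulated data for Dgcr8 KO against WT with 22999 rows, limma recovered 26% of 50 rows changed by 0.25, 66% by 0.5, 96% by 1 and 100% by 2 on the log2 scale, with 6 false calls. Far fewer rows were changed there than were called in the real data, so these shares do not carry over to it.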

Additional observations from a re-analysis of the deposited data

Results flagged for a closer look

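Genes with called ratios of opposite sign in the mutants, with the difference between the mutants tested directly, were picked out. Dgcr8 KO minus Dicer KO was -0.54 for Atp5pb (adjusted p = 0.000904), -0.37 for Cox6c (adjusted p = 0.000328) and -0.46 for its other row (adjusted p = 6.26e-05), with Dgcr8 KO below WT and Dicer KO above WT. It was -0.53 for the X-linked gene Ndufa1 (adjusted p = 0.000182), against a median of -0.43 over X-linked rows with a level over 8. For Ndufa3 it was 0.33 (adjusted p = 0.000775), with Dgcr8 KO above WT and Dicer KO below WT. The opposite calls of Atp5pb and Ndufa3 against WT were lost in 7 and 8 of the 9 fits that left out 1 array.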

How the results depend on the processing

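Counts are of 114 rows. In Dgcr8 KO relative to WT cells, the 10 higher rows were 2 with SAM, 3 with median centring, 20 with cyclic loess, 16 with a variance trend, 0 at 1.5-fold, 3 at adjusted p under 0.01 and 6 with neither Dgcr8 KO replicate 2 nor WT replicate 1 in the fit, and 4 to 11 over fits without 1 array (4 without Dgcr8 KO replicate 1). The 46 lower rows were 23 with SAM and 6 at 1.5-fold, and 37 to 49 without 1 array. In Dicer KO relative to WT cells, the 21 higher rows were 0 at 1.5-fold and 17 to 21 without 1 array, and the 33 lower rows were 15 with SAM, 1 at 1.5-fold, 20 at 0.01 and 24 to 38 without 1 array. Between the mutants, the 8 higher rows were 5 with median centring, 14 with cyclic loess, 0 at 1.5-fold, 4 at 0.01 and 5 to 11 without 1 array (5 without Dgcr8 KO replicate 1), and the 33 lower rows were 0 at 1.5-fold, 19 at 0.01 and 21 to 36 without 1 array (21 without Dicer KO replicate 2). Median centring gave 5 higher and 38 lower there, and cyclic loess 14 and 29.

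Relative to both, the 3 rows higher in Dgcr8 KO were 1 with SAM, median centring, fits of the 2 groups alone or at 0.01, 5 with cyclic loess, 0 at 1.5-fold and 1 to 4 without 1 array. The 23 lower rows were 15 with SAM or with all rows of the table, 0 at 1.5-fold, 10 at 0.01 and 12 to 24 without 1 array. The 14 rows higher in Dicer KO were 0 at 1.5-fold, 8 at 0.01, 8 with 1 row per gene and 10 to 14 without 1 array. The 6 lower rows were 3 with SAM or median centring, 0 at 1.5-fold, 2 at 0.01 and 3 to 7 without 1 array. Median centring gave 1 higher and 26 lower for Dgcr8 KO, and 14 higher and 3 lower for Dicer KO, where cyclic loess gave 5, 16, 13 and 9. The cause of these shifts was not tested.

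Medians of complexes also moved with scaling. In Dgcr8 KO relative to WT, median centring and cyclic loess gave -0.16 and -0.068 for complex I, 0.038 and 0.13 for complex II, -0.023 and 0.084 for complex IV and -0.30 and -0.20 for complex V, and cyclic loess gave 0.032 for complex III and, in Dicer KO, 0.17 for complex IV. Between the mutants they gave -0.099 and -0.022 for complex I, 0.12 and 0.22 for complex II, -0.19 and -0.10 for complex IV and -0.17 and -0.079 for complex V, and median centring -0.12 for complex III. Without WT replicate 1 and Dgcr8 KO replicate 2 together, medians were -0.047 (complex I) and -0.20 (complex V) in Dicer KO relative to WT, 0.027 (complex II) and -0.12 (complex III) in Dgcr8 KO relative to WT, and 0.14 (complex II) between the mutants. The direction of the medians of complexes III and IV in Dgcr8 KO thus depended on scaling. Without 1 array, in Dgcr8 KO relative to WT, they ran from -0.12 to -0.084 (complex I), 0.047 to 0.085 (II), -0.083 to 0.031 (III), 0.0081 to 0.030 (IV) and -0.29 to -0.24 (V), and in Dicer KO relative to WT from -0.047 to 0.0075 (I), -0.086 to -0.050 (II), -0.013 to 0.049 (III), 0.12 to 0.16 (IV) and -0.20 to -0.12 (V). Between the mutants they ran from -0.074 to -0.021 (I), 0.14 to 0.19 (II), -0.096 to -0.057 (III), -0.16 to -0.12 (IV) and -0.13 to -0.11 (V).

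Arrays share only a replicate number: deviations of arrays with the same number had r from -0.20 to 0.34. With the number as a block, 5 rows were higher between the mutants, 1 was higher in Dgcr8 KO and 3 were lower in Dicer KO relative to both. Of 84 calls of named genes, 59 held without any 1 array, and 0 reversed under any alternative. Median centring lost 10 of the 84 calls, cyclic loess 7 and SAM 28, so a call that held without any 1 array may still depend on scaling. Only median centring, cyclic loess and the fits without some arrays could reverse a ratio, since the other settings leave the ratios unchanged. The simulation changed far fewer rows than the 3615 higher and 3975 lower that were called in Dgcr8 KO relative to WT cells. Its cut-off was therefore stricter than in the data, and it does not give the smallest change the test finds there. Ratios of -0.12 (Atp5d in Dicer KO cells) and 0.14 (Sdhc in Dgcr8 KO cells) were called.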
